A study of Mus musculus with 12 samples.

Results

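The unfolded protein and amino acid stress response was followed in cultured mouse liver cells through 37 genes of its ATF4, ATF6 and XBP1 arms and of amino acid synthesis. They were chosen by name, with earlier results of these data known, from 53452 genes in the deposited count table, and each matched 1 row. The labels call the cells HSCs from WT mouse liver, freshly isolated, and the abbreviation was taken to mean hepatic stellate cells, which store vitamin A beside the liver sinusoids. In all groups 1000000 cells were seeded, kept for 12 h, given fresh medium and collected 24 h after that change. The DMSO 12 h group received the solvent DMSO 12 h after the medium change, for the last 12 h. The riociguat 6 h, 12 h and 24 h groups received riociguat, a stimulator of soluble guanylate cyclase, 18, 12 and 0 h after it, for the last 6, 12 and 24 h. Each group had 3 RNA sequencing libraries. The sources used here do not give the strain, the age of the animals or the dose. They do not say whether replicates were separate animals, so the p-values cover the spread between the samples at hand, which may be only technical. Only the 12 h comparison matched riociguat and DMSO for the time of addition. In the 6 h and 24 h comparisons riociguat and the time of addition cannot be told apart.

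Cells slow translation and raise a set of repair genes when amino acids run short or proteins misfold in the endoplasmic reticulum (ER). Kinases such as PERK (Eif2ak3) phosphorylate the translation factor eIF2alpha, which favours translation of the transcription factor ATF4, and ATF4 drives amino acid synthesis and transport, CHOP (Ddit3) and its own brakes. IRE1 (Ern1) splices the Xbp1 mRNA and ATF6 is cut from its membrane anchor, and both then drive ER chaperones and degradation of misfolded proteins. Stellate cells that become matrix-secreting myofibroblasts are known to depend on ER folding capacity. Much of this signalling acts on proteins and on splicing, which gene counts do not show: the Xbp1 count holds spliced and unspliced mRNA together.

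Library totals ranged from 12953096 counts in riociguat 6 h replicate 1 to 27358893 in riociguat 6 h replicate 3. Within groups, the chi-square value per degree of freedom between 2 libraries lay between 4.08 and 16.03, and the highest, 12.3 and 16.03, were those of DMSO replicate 1 with the other DMSO libraries. Stellate markers were present at mixed levels. In the DMSO libraries Reln averaged 1367, Dcn 667 and Pdgfrb 238 CPM (CPM, the counts of a gene per 1000000 counts of the library, scaled with TMM factors). Lrat averaged 4.81 CPM and Gfap 0.773 CPM there. Markers of other cell types were also found in the DMSO libraries, with the hepatocyte marker Alb at 837 CPM and the endothelial marker Cdh5 at 322 CPM on average. No marker of stellate cells, hepatocytes, macrophages, endothelial cells, cholangiocytes or portal fibroblasts with mesothelium was at 0 in every library. In bulk samples, fewer cells of a type and less RNA per cell cannot be told apart.

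Start regions of some of these genes hold motifs known from the ATF4 and ATF6 arms. The 4 shown belong to called genes described below, namely those with a match and the largest absolute change at 12 h. RefSeq promoter windows (GRCm38.p6, 300 bases long, 250 of them before the start) were at hand for 34 of the 37 genes, and not for Atf6, Manf and Slc7a5. Printed below are the 250 bases before the start, 5′ to 3′ on the strand of the gene, with matches on either strand to 1 of 2 motifs in capitals. TGATGNAA is the C/EBP-ATF response element, bound by ATF4 with its partners. The ER stress response element, bound by ATF6 with NF-Y, is CCAAT followed, after 9 bases of any kind, by CCACG.
Asns, chr6:7693210-7693459, minus strand: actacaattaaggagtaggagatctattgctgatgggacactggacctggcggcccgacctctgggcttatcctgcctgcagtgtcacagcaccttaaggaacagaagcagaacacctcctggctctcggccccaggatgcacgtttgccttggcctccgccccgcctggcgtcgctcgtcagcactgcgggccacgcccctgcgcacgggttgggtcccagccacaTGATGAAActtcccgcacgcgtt
Atf3, chr1:191183334-191183583, minus strand: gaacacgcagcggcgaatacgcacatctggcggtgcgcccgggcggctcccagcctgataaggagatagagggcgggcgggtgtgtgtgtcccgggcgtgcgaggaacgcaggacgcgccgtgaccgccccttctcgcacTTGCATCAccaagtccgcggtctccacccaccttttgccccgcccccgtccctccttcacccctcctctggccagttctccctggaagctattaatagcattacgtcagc
Hsp90b1, chr10:86705445-86705694, minus strand: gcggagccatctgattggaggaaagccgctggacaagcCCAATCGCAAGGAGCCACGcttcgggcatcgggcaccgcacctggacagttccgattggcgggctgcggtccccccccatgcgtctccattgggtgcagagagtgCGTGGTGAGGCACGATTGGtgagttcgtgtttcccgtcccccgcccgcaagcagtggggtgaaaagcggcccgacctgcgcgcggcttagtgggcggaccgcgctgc
Creld2, chr15:88819396-88819645, plus strand: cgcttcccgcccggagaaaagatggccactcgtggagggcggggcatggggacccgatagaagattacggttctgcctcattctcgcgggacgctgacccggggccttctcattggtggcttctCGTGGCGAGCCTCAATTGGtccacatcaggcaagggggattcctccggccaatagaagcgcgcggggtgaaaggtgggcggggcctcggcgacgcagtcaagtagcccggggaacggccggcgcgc
The match in Asns, the asparagine synthetase gene, began 23 bases before the start. In Atf3, a stress-induced transcription factor, it began 110 bases before the start and lay on the other strand. Hsp90b1, which encodes the ER chaperone GRP94, held 2 matches to the ER stress response element, beginning 212 and 107 bases before the start. Creld2, a secreted ER folding factor, held 1, beginning 126 bases before the start.

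TGATGNAA was found in 7 of the 34 genes (20.6%), namely Asns, Atf3, Chac1, Herpud1, Pycr1, Trib3 and Vldlr, against 4.51% of 27025 genes with such a window. The ER stress response element was also found in 7 (20.6%), namely Calr, Canx, Creld2, Dnajc3, Hsp90b1, Hspa5 and Pdia6, against 0.137% of all genes. CCACG, which is also the end of that element, was in 26 of the 34 genes (76.5%), against 35.5%. TGACGTGG, the unfolded protein response element, whose reverse complement contains CCACG, was in 0 of the 34 against 0.714%. The first pair of motifs thus fell in different genes, mostly amino acid and feedback genes for TGATGNAA and chaperones for the other. The genes were chosen by name as parts of these arms, so the higher shares of the arms' motifs are not an independent result. A match is a run of letters and not a measured site.

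All 37 genes passed the filter on low counts. Their mean levels lay between 11.2 and 1134 CPM with a median of 122 CPM, against a median of 18.8 CPM over the 16036 genes tested. Per kilobase of exon in DMSO libraries, the chaperone genes stood highest, with Calr at 274, Hspa5 at 262 and Hsp90b1 at 225 CPM per kilobase. Atf4 was next at 187 CPM per kilobase. The lowest on this scale were Vldlr at 2.08, Pycr1 at 2.78, Psph at 4.2 and Eif2ak3 at 6.16 CPM per kilobase. Counts of Ddit3, Atf5, Psph and Manf are uncertain, because each shares positions with another gene (Mars, Nup62, Cct6a, and Dcaf1 with Rbm15b) and whether counting used the strand is not stated.

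Most of the response moved little at any exposure time, and genes of the list moved in both directions (edgeR quasi-likelihood test, Benjamini-Hochberg adjusted over all 16036 genes, called at adjusted p under 0.05). At 6 h, 2 rose (Asns and Slc3a2) and 1 fell (Ern1), or 8.11% of the list against 9.72% of all genes (4.48% rose, 5.24% fell). At 12 h, 1 gene rose (Asns) and 1 fell (Atf6), or 5.41% against 5.66% (2.18% rose, 3.48% fell). At 24 h, 6 rose and 7 fell, or 35.1% against 13.4% of all genes (5.94% rose, 7.41% fell). Among the 9399 genes with a mean level at or above that of the lowest member, 14.4% were called at 6 h, 8.93% at 12 h and 19.1% at 24 h. The 6 h and 12 h shares called were thus at or below the background, and the 24 h share called was above it. With an unadjusted p under 0.05 there were 10, 15 and 20 of the 37 genes at 6, 12 and 24 h. Over the 16036 genes there were 3722, 2695 and 4216. By this looser cutoff the share of the list was above that of all genes at 6 h, 12 h and 24 h, least so at 6 h. The list was chosen with earlier results of these data known, so these shares were described and not tested. The 3 comparisons share the DMSO libraries. The background of genes at or above the lowest member was counted only for calls in either direction. Shares by direction, by unadjusted p or by range of libraries are set beside all genes, whose median level was lower.

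Sizes were small. The largest fitted changes in either direction were -0.30 in log2 at 6 h (Ern1), 0.33 at 12 h (Trib3, not called) and 0.46 at 24 h (Dnajb9). The 95% interval of the log2 fold change lay within 0.5 of 0 for all 37 genes at 6 h, for 35 at 12 h and for 35 at 24 h. The median log2 fold change of the list was 0.0069 at 6 h, 0.05 at 12 h and 0.06 at 24 h, against -0.0044, 0.0025 and -0.0065 over all genes. Asns was called at 3 exposure times, Atf6 at 2, 13 genes at 1 and 22 at none. How often other genes were called at several times was not counted, so these numbers have no background. All riociguat libraries lay outside the range of the DMSO libraries for 11 genes at 6 h (4 above, 7 below), 18 at 12 h (11 above, 7 below) and 22 at 24 h (15 above, 7 below). Over all genes that share was 25.7% at 6 h (12.1% above, 13.6% below), 22.4% at 12 h (10.5% and 11.9%) and 28.3% at 24 h (12.6% and 15.7%). The share of the list was higher than this at 6 h, 12 h and 24 h, least so at 6 h. There the share lying above DMSO was lower than over all genes and the share below was higher.

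**Figure D1:**
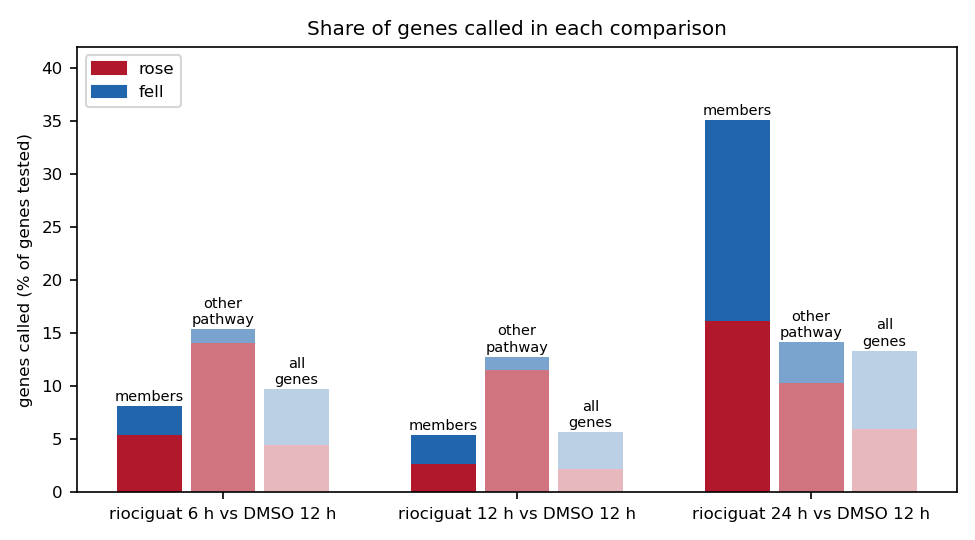
Share of genes called in each comparison with DMSO 12 h (y axis, percent of genes tested), split into those that rose and those that fell, for the 37 genes of the response, 78 other genes of the pathway and all 16036 genes. The share called among the 37 genes was above that of all genes at 24 h (35.1% against 13.4%) and not at 6 h or 12 h. The 37 were chosen with earlier results of these data known, so this was not tested.

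The 12 h count depended on single libraries. It became 5 without DMSO replicate 1 (3 rose, 2 fell) and 1 without DMSO replicate 2, riociguat 12 h replicate 1 or riociguat 12 h replicate 2. Without DMSO replicate 1 the 6 h count was 3 and the 24 h count was 10, and with DESeq2's size factors in edgeR the 24 h split was 8 rose and 6 fell.

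**Figure D2:**
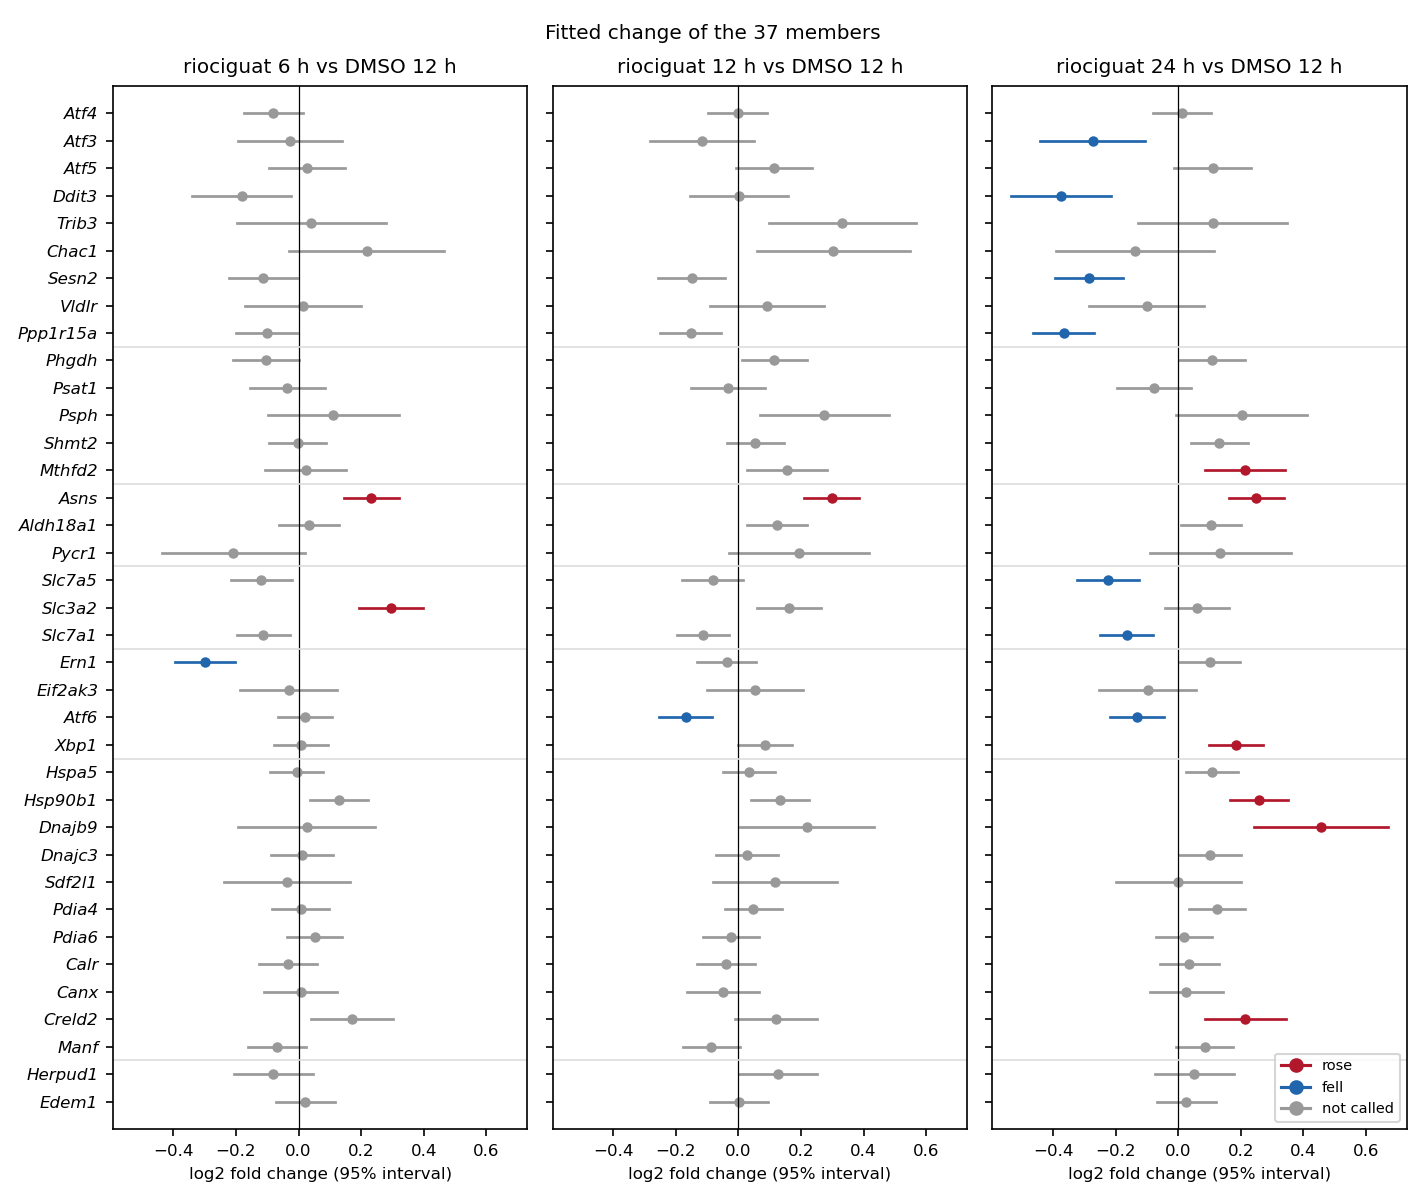
Fitted log2 fold change (x axis) of each of the 37 genes (rows, grouped by role) in riociguat at 6, 12 and 24 h, each against DMSO 12 h, as points with 95% intervals. Red genes rose, blue genes fell and grey genes did not pass the test, and most grey intervals lie near 0.

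Atf4, the transcription factor at the centre of the integrated stress response (chr15:80255184-80257541, plus strand, GRCm38), was called in none of the 3 comparisons. Its level was 425, 432 and 468 CPM in DMSO 12 h libraries, 433, 408 and 412 CPM in riociguat 6 h, 444, 451 and 427 CPM in riociguat 12 h and 457, 439 and 440.3 CPM in riociguat 24 h libraries. At each time the riociguat libraries overlapped the DMSO libraries. Its log2 fold change was -0.08 ± 0.04 at 6 h (95% interval -0.17 to 0.01), -0.0026 ± 0.04 at 12 h (-0.10 to 0.09) and 0.01 ± 0.04 at 24 h (-0.08 to 0.11). ATF4 is controlled mainly at translation, so its mRNA level does not show the amount of protein.

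Ddit3, the CHOP gene, a transcription factor induced by ATF4 (chr10:127290774-127296288, plus strand), fell at 24 h. Its level was 25.7, 24.98 and 27.98 CPM in DMSO 12 h libraries, 23.5, 23.95 and 21.98 CPM at riociguat 6 h, 25.1, 26.3 and 27.3 CPM at riociguat 12 h and 19.3, 20.2 and 21.2 CPM at riociguat 24 h. The riociguat 24 h libraries were below all others, and the riociguat 12 h libraries lay within the range of the DMSO libraries. Its fitted change was -0.18 ± 0.08 in log2 at 6 h (95% interval -0.34 to -0.02, adjusted p 0.15), 0.0027 ± 0.07 at 12 h (-0.15 to 0.16, adjusted p 0.993) and -0.37 ± 0.08 at 24 h (-0.53 to -0.21, adjusted p 0.00272). The overlapping Mars gene had 2679 counts per library on average against 502 for Ddit3, and how far its reads enter the Ddit3 count was not tested.

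Ddit3 was not alone: of the 9 transcription factor and feedback genes, 4 fell and none rose at 24 h, against 7.41% fallen and 5.94% risen over all genes. Ppp1r15a (GADD34), which brings a phosphatase to eIF2alpha and ends the translation block, averaged 136 ± 5.74 CPM in riociguat 24 h libraries and 175 ± 7.9 CPM in DMSO libraries (SD, n = 3 each). Its log2 fold change was -0.37 ± 0.05 (adjusted p 3.21e-05). Sesn2, a leucine sensor that restrains mTORC1, averaged 94.7 ± 1.95 CPM at riociguat 24 h and 115 ± 4.04 CPM in DMSO, a log2 change of -0.29 ± 0.05 (adjusted p 0.000987). Both had all 3 riociguat 24 h libraries below the DMSO libraries. Atf3 averaged 30.9 ± 2.87 CPM at riociguat 24 h and 37.3 ± 1.03 CPM in DMSO, a change of -0.27 ± 0.08 (adjusted p 0.0291). The Atf3 call was lost without any of 5 libraries, at adjusted p 0.0518, 0.104 and 0.0603 without DMSO replicate 1, 2 and 3, and 0.0614 and 0.167 without riociguat 24 h replicate 1 and 3. It was also lost with only the 2 groups in the fit (0.0563).

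The other 5 genes of this group were not called at 24 h. They were Atf4, Atf5, a relative of ATF4, Trib3, a pseudokinase that binds and restrains ATF4, Chac1, which degrades glutathione, and Vldlr, a lipoprotein receptor. Trib3 and Chac1 had the largest positive changes of the list at 12 h. Trib3 averaged 30.9 ± 4.57 CPM at riociguat 12 h and 24.6 ± 2.91 CPM in DMSO, a log2 change of 0.33 ± 0.11 (95% interval 0.10 to 0.57, adjusted p 0.106). Chac1 averaged 16.2 ± 1.88 CPM and 13.2 ± 1.64 CPM in the same groups, a change of 0.30 ± 0.12 (0.06 to 0.55, adjusted p 0.172). For both, the libraries of the groups overlapped. At 6 h edgeR and DESeq2 both called 0 of the 9, with 3 at an unadjusted p under 0.05 in edgeR. At 12 h edgeR called 0, with 4 at an unadjusted p under 0.05, and DESeq2 called 1, which fell. Of all 16036 genes, 3722 at 6 h and 2695 at 12 h had such an unadjusted p in edgeR.

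Asns makes asparagine from aspartate and glutamine and is among the best-known ATF4 targets. It rose at every exposure time. Its level (chr6:7675169-7693254, minus strand) was 104, 102 and 102 CPM in DMSO 12 h libraries, 122, 119 and 121 CPM at riociguat 6 h, 123, 130.2 and 126 CPM at riociguat 12 h and 120.5, 121 and 125 CPM at riociguat 24 h. All 9 riociguat libraries lay above the 3 DMSO libraries. The log2 fold change was 0.23 ± 0.04 at 6 h (95% interval 0.14 to 0.32, adjusted p 0.00158), 0.30 ± 0.04 at 12 h (0.21 to 0.39, adjusted p 0.000174) and 0.25 ± 0.04 at 24 h (0.16 to 0.34, adjusted p 0.000585). No alternative ended these calls, and no pair of exposure times differed past the threshold (adjusted p 0.46 for 12 h against 6 h, 0.695 for 24 h against 12 h and 0.85 for 24 h against 6 h).

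Of the other synthesis genes 1 passed the test in a comparison with DMSO. Of the proline genes, Aldh18a1 had a log2 change of 0.12 ± 0.04 at 12 h (adjusted p 0.146) and Pycr1, the last step, had 0.19 ± 0.11 (adjusted p 0.384). Of the 5 genes of serine and glycine synthesis and the mitochondrial folate cycle, Mthfd2 rose at 24 h and no gene fell. Among all genes 5.94% rose and 7.41% fell at 24 h. Of the 5 genes, 2 rose with DESeq2's size factors in edgeR or with DESeq2. Mthfd2, a mitochondrial folate enzyme, averaged 81.4 ± 5.86 CPM at riociguat 24 h and 70.1 ± 1.87 CPM in DMSO, a log2 change of 0.21 ± 0.06 (adjusted p 0.0265). Leaving out DMSO replicate 1, DMSO replicate 2 or riociguat 24 h replicate 2 ended that call, at adjusted p 0.0537, 0.0996 and 0.105. At 24 h the other 4 were not called: Shmt2, which splits serine to glycine, had a log2 change of 0.13 ± 0.04 (adjusted p 0.0541), Phgdh, the entry enzyme of serine synthesis, 0.11 ± 0.05 (0.171), Psph, the last enzyme of that path, 0.20 ± 0.10 (0.204) and Psat1, its aminotransferase, -0.08 ± 0.06 (0.415).

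Of the 3 amino acid transporters, 1 rose at 6 h and 2 fell at 24 h, where 4.48% of all genes rose at 6 h and 7.41% fell at 24 h. Slc3a2, the CD98 heavy chain that carries several transporters to the cell surface, rose at 6 h. It averaged 639 ± 33.6 CPM in riociguat 6 h libraries and 521 ± 29.4 CPM in DMSO libraries, a log2 change of 0.29 ± 0.05 (adjusted p 0.00065), and its change was 0.16 ± 0.05 at 12 h (0.062) and 0.06 ± 0.05 at 24 h (0.48). Its partner Slc7a5 (LAT1), which imports leucine and other large amino acids, fell at 24 h to 152 ± 4.34 CPM, against 177 ± 7.15 CPM in DMSO, a change of -0.22 ± 0.05 (adjusted p 0.0033). Slc7a1 (CAT1), the importer of arginine and lysine, fell at 24 h to 255 ± 2.37 CPM, against 286 ± 2.86 CPM in DMSO, a change of -0.16 ± 0.04 (0.0104). Without DMSO replicate 3 or riociguat 24 h replicate 1 the Slc7a1 call was lost (adjusted p 0.06 and 0.0549).

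**Figure D3:**
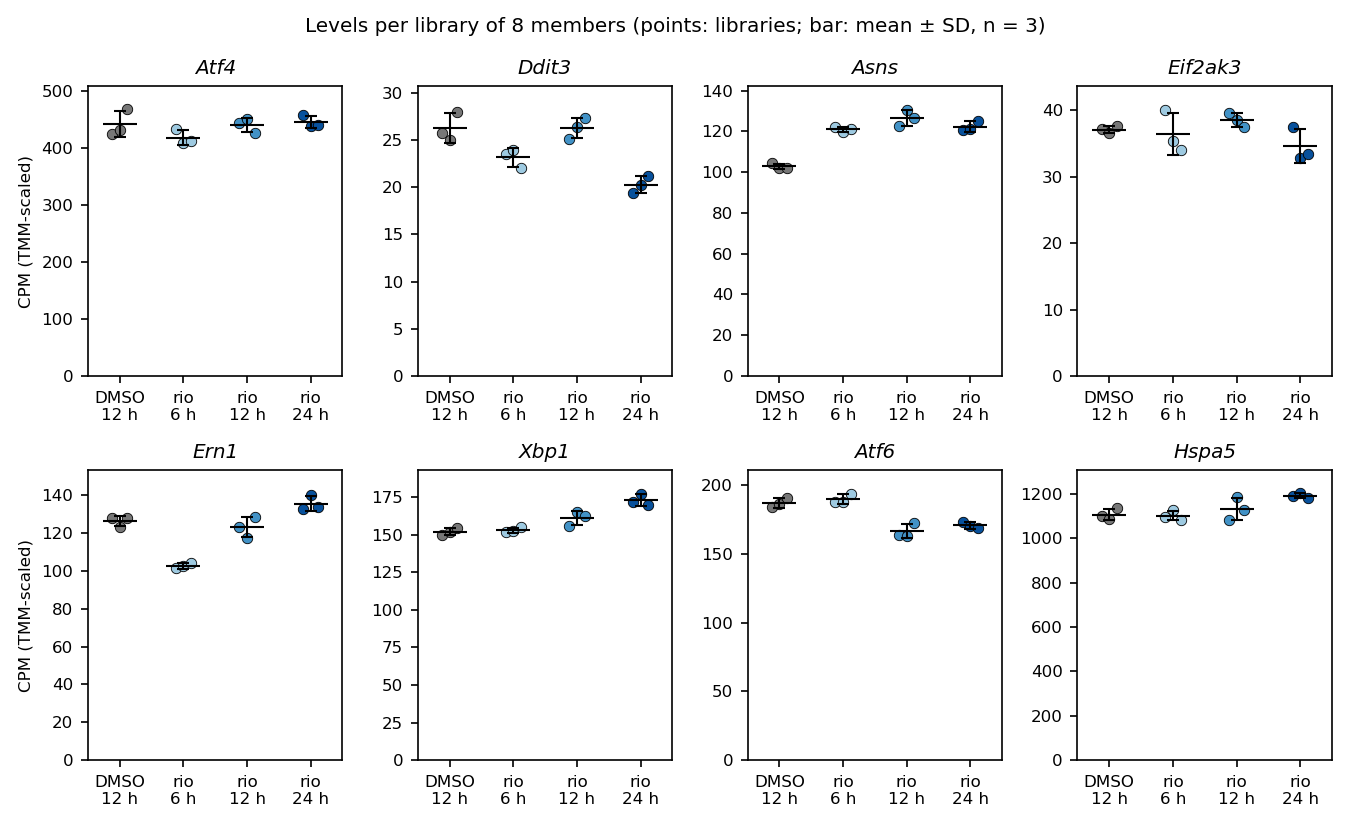
Level (y axis, TMM-scaled CPM, from 0) of Atf4, Ddit3, Asns, Eif2ak3, Ern1, Xbp1, Atf6 and Hspa5 in each library of DMSO 12 h and riociguat 6, 12 and 24 h, with mean ± SD (n = 3). Asns is higher in all 9 riociguat libraries, Ern1 is lowest at 6 h, and Atf4 overlaps DMSO at each time.

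Of the 4 ER stress sensors, 1 fell at 6 h, 1 fell at 12 h, and 1 rose and 1 fell at 24 h. Over all genes 5.24% fell at 6 h, 3.48% fell at 12 h, and 5.94% rose and 7.41% fell at 24 h. Ern1, which encodes the kinase and nuclease IRE1 (chr11:106394650-106487852, minus strand), fell at 6 h. Its level was 128, 123 and 128 CPM in DMSO 12 h libraries, 101, 102 and 104 CPM at riociguat 6 h, 123, 118 and 128 CPM at riociguat 12 h and 133, 140.0 and 134 CPM at riociguat 24 h. The riociguat 6 h libraries were below all others and the riociguat 24 h libraries above all others. Its fitted log2 change was -0.30 ± 0.05 at 6 h (95% interval -0.40 to -0.20, adjusted p 0.000347), -0.04 ± 0.05 at 12 h (adjusted p 0.755) and 0.10 ± 0.05 at 24 h (adjusted p 0.161).

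Atf6, the membrane-bound transcription factor of the third arm (chr1:170704674-170867771, minus strand), fell at 12 h and 24 h. Its level was 184, 186 and 191 CPM in DMSO 12 h libraries, 188, 188 and 194 CPM at riociguat 6 h, 164, 163 and 172 CPM at riociguat 12 h and 173, 170.4 and 169 CPM at riociguat 24 h. The 12 h and 24 h riociguat libraries were below all DMSO libraries. The log2 fold change was 0.02 ± 0.04 at 6 h (adjusted p 0.819), -0.17 ± 0.04 at 12 h (0.0167) and -0.13 ± 0.04 at 24 h (0.0385). The 12 h call did not hold without DMSO replicate 2 (adjusted p 0.0624), DMSO replicate 3 (0.117), riociguat 12 h replicate 1 (0.0873) or riociguat 12 h replicate 2 (0.127). It was also lost when no filter on low counts was used (0.0735). The 24 h call was lost without any of 9 of the 12 libraries, at adjusted p of up to 0.191 without DMSO replicate 3, and also with DESeq2's size factors in edgeR (0.0563), with no filter (0.181) and with only the 2 groups in the fit (0.0805).

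Xbp1, whose spliced mRNA encodes the factor downstream of IRE1 (chr11:5520659-5525893, plus strand), rose at 24 h. Its level was 149.9, 152 and 155 CPM in DMSO 12 h libraries, 152, 152 and 155 CPM at riociguat 6 h, 156, 166 and 163 CPM at riociguat 12 h and 172, 178 and 169.9 CPM at riociguat 24 h. The riociguat 24 h libraries were above all others, and the riociguat 6 h libraries overlapped those of DMSO. The log2 fold change was 0.01 ± 0.04 at 6 h (adjusted p 0.936), 0.08 ± 0.04 at 12 h (0.311) and 0.19 ± 0.04 at 24 h (95% interval 0.10 to 0.27, adjusted p 0.00524). No alternative ended the 24 h call.

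Eif2ak3, the gene of the eIF2alpha kinase PERK (chr6:70844515-70905245, plus strand), was called at no time. Its level was 37.2, 36.5 and 37.6 CPM in DMSO 12 h libraries, 40.03, 35.3 and 34.03 CPM at riociguat 6 h, 39.6, 38.5 and 37.4 CPM at riociguat 12 h and 37.5, 32.9 and 33.5 CPM at riociguat 24 h. The groups overlapped, and the 95% interval of the log2 change was -0.19 to 0.12 at 6 h, -0.10 to 0.21 at 12 h and -0.25 to 0.06 at 24 h.

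**Figure D4:**
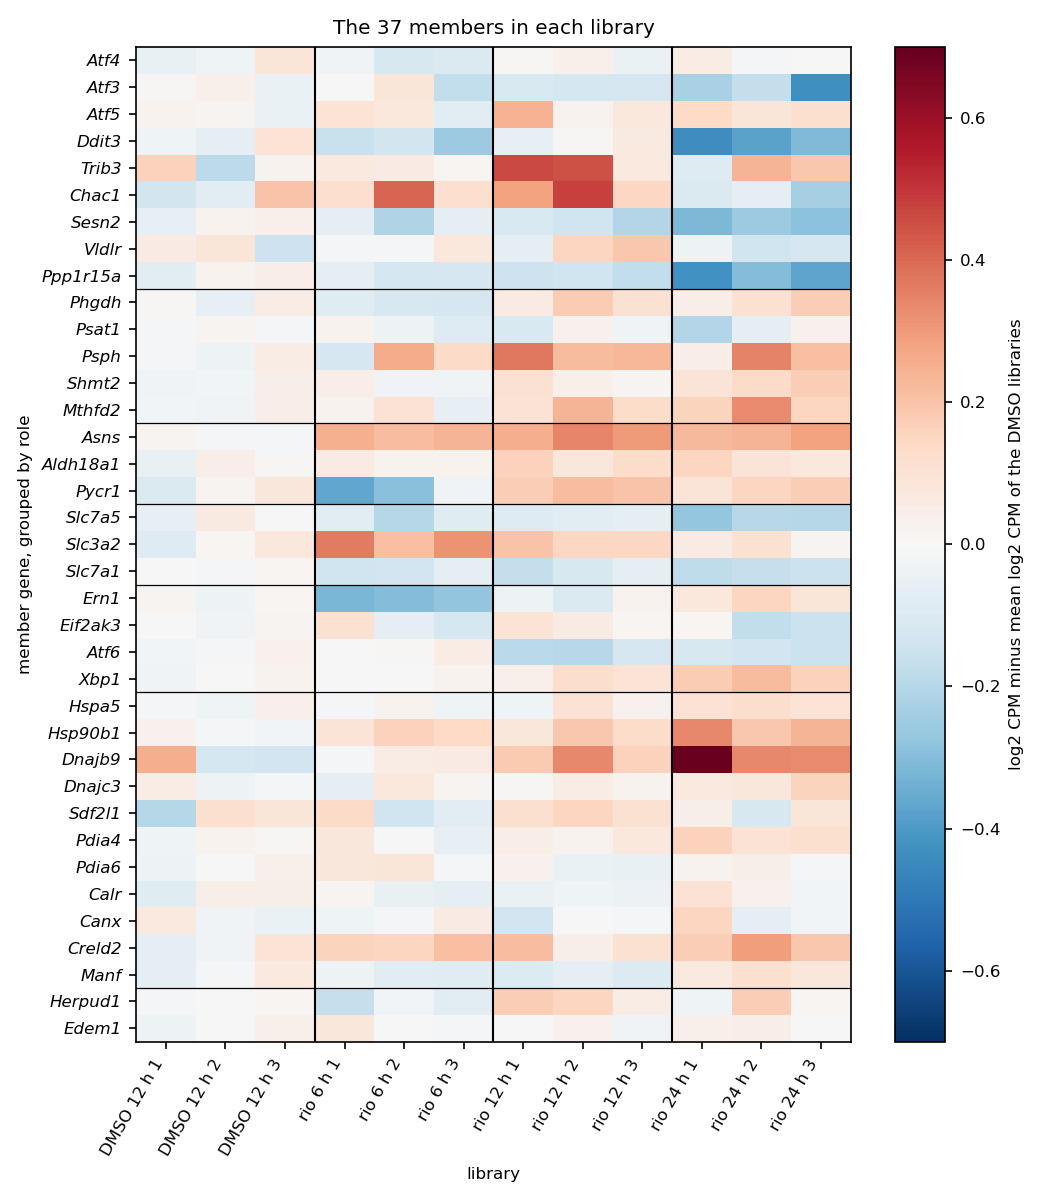
Level of each of the 37 genes (rows, by role) in each of the 12 libraries (columns), as log2 CPM minus the mean of the DMSO libraries (colour, red above and blue below). The riociguat 24 h columns show lower Ddit3, Sesn2 and Ppp1r15a beside higher Xbp1, Hsp90b1 and Dnajb9.

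Of the 11 ER chaperones and folding enzymes, 3 rose and none fell at 24 h, against 5.94% risen and 7.41% fallen over all genes. The fitted change was above 0 for all 11 under TMM, DESeq2's size factors and DESeq2, and under TMM for 7798 of the 16036 genes. The median log2 change was 0.10 against -0.0065 over all genes. The number that rose was 4 with DESeq2's size factors in edgeR and 5 with DESeq2. Hspa5 (BiP, chr2:34771970-34777547, plus strand), the main ER chaperone and the classic readout of ER stress, did not pass the test. Its level was 1101, 1086 and 1136 CPM in DMSO 12 h libraries, 1096, 1126 and 1085 CPM at riociguat 6 h, 1085, 1186 and 1129.5 CPM at riociguat 12 h and 1189.7, 1206 and 1183 CPM at riociguat 24 h. The riociguat 24 h libraries were above the DMSO libraries by a narrow margin. Hspa5 had a log2 fold change of -0.01 ± 0.04 at 6 h (95% interval -0.09 to 0.08), 0.03 ± 0.04 at 12 h (-0.05 to 0.12) and 0.11 ± 0.04 at 24 h (0.02 to 0.19, adjusted p 0.0854).

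Among the 3 that rose, Dnajb9 (ERdj4), a BiP co-chaperone and XBP1 target, had the largest change, 0.46 ± 0.10 in log2 (95% interval 0.24 to 0.67, adjusted p 0.00581). It averaged 83.1 ± 12.5 CPM at riociguat 24 h and 60.7 ± 9.67 CPM in DMSO, with SDs among the widest of the list in proportion to the level. Hsp90b1 averaged 1084 ± 57.2 CPM at riociguat 24 h and 907 ± 15.5 CPM in DMSO, a change of 0.26 ± 0.04 (adjusted p 0.000677). Creld2 averaged 64.5 ± 2.96 CPM and 55.6 ± 3.31 CPM in the same groups, a change of 0.21 ± 0.06 (0.0279), a call that leaving out DMSO replicate 1 (adjusted p 0.0813), DMSO replicate 2 (0.101) or riociguat 24 h replicate 2 (0.0908) ended. Hsp90b1 and Creld2 carried the ER stress response element shown above, as did Hspa5, Calr, Canx, Dnajc3 and Pdia6, which were called in no comparison with DMSO.

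Besides Hspa5, the uncalled chaperone genes at 24 h were the disulfide isomerases Pdia4 (0.12 in log2) and Pdia6 (0.02), the lectin chaperones Calr (0.04) and Canx (0.03), the co-chaperones Dnajc3 (0.10) and Sdf2l1 (0.00052), and the secreted factor Manf (0.08). Their adjusted p lay between 0.0645 and 0.998. At 6 h and at 12 h edgeR called 0 of the 11 chaperone genes and DESeq2 called 1 at each. In edgeR 2 of the 11 had an unadjusted p under 0.05 at each time, against 3722 at 6 h and 2695 at 12 h of all 16036 genes. Herpud1 and Edem1, which take part in the removal of misfolded proteins, were not called at 24 h in edgeR or DESeq2, with 0 at an unadjusted p under 0.05 in edgeR and log2 changes of 0.05 ± 0.06 and 0.03 ± 0.04.

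Markers of other cell types moved with the 24 h changes. The summed level of 10 hepatocyte markers was 578 to 820.0 CPM in riociguat 24 h libraries and 1229 to 1295 CPM in DMSO libraries, and 8 of the 10 fell. The 10 endothelial markers summed to 790 to 813 CPM at riociguat 24 h and 919 to 1006 CPM in DMSO, with 2 risen and 4 fallen. The 6 cholangiocyte markers summed to 982 to 1026 CPM at riociguat 24 h and 553 to 594 CPM in DMSO. The higher sum was that of Spp1 (osteopontin) alone, the 1 marker of the list that rose, at 732 ± 13.6 CPM at riociguat 24 h and 266 ± 13.97 CPM in DMSO. Without Spp1 the other 5 summed to 255 to 299 CPM at riociguat 24 h and 297 to 312 CPM in DMSO, and all 5 had fitted changes below 0. The 16 stellate markers summed to 3461 to 3713 CPM at riociguat 24 h and 3154 to 3224 CPM in DMSO, with 6 risen and 2 fallen. Reln was the most abundant of them, and without it the sums were 1855 to 2010 CPM and 1801 to 1847 CPM in the same groups. Of the 10 macrophage markers 9 were tested and 1 rose, Lyz2, at 90.5 ± 12.2 CPM at riociguat 24 h and 68.7 ± 1.22 CPM in DMSO. The list summed to 143 to 163 CPM at riociguat 24 h and 131 to 142 CPM in DMSO, and without Lyz2 to 63.3 to 67.04 CPM and 61.3 to 72.97 CPM. The 8 portal fibroblast and mesothelium markers summed to 64.8 to 72.1 CPM and 64.1 to 69.6 CPM, with 1 risen.

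Markers also moved at the earlier times. At 6 h the endothelial sum was 1137 to 1208 CPM, with 3 of 10 risen, and the hepatocyte sum 1033 to 1174 CPM, with 0 of 10 called by edgeR, 1 at an unadjusted p under 0.05 and all 10 fitted changes below 0. The macrophage sum at 6 h was 118 to 123 CPM, with 1 fallen (Lyz2), 2 of 6 cholangiocyte markers fell, and of 16 stellate markers 1 rose and 1 fell. At 12 h the cholangiocyte sum was 662 to 754 CPM, with 1 risen (Spp1), and without Spp1 299 to 340.0 CPM. Of the 16 stellate markers 2 rose and 2 fell at 12 h. The hepatocyte sum was 1136 to 1419 CPM at 12 h, with 0 of 10 called by edgeR and 0 at an unadjusted p under 0.05. The part of these markers in the changes of the response was not tested.

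Beyond the 37, another 78 genes of the pathway were read from a list, all of them tested. At 6 h 11 rose and 1 fell, at 12 h 9 rose and 1 fell, and at 24 h 8 rose and 3 fell, which is 15.4%, 12.8% and 14.1% of the list. The shares over all genes were 9.72%, 5.66% and 13.4% at these times, and 14.4%, 8.93% and 19.1% among genes at or above the level of the lowest of the 37. The 6 h share was thus near the second background and the 24 h share near or below both. Without DMSO replicate 2 or riociguat 12 h replicate 2 the 12 h count was 5. Of its 32 further ATF4 and amino acid genes, 7 rose and 0 fell at 6 h, 6 rose and 0 fell at 12 h, and 4 rose and 1 fell at 24 h. Over all genes 4.48%, 2.18% and 5.94% rose at these times, and 5.24%, 3.48% and 7.41% fell. In each comparison with DMSO the largest called change of the pathway was among these 78 genes and not among the 37.

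Slc7a11 (xCT), which imports cystine for glutathione synthesis and answers to ATF4 and to NRF2, rose at every time. Its level was 460.2, 376 and 355 CPM in DMSO 12 h libraries, 728, 798 and 870.2 CPM at riociguat 6 h, 606, 661 and 671 CPM at riociguat 12 h and 650.4, 545 and 526 CPM at riociguat 24 h. All riociguat libraries were above all DMSO libraries. In log2 it rose by 1.01 ± 0.09 at 6 h (adjusted p 1.28e-06), 0.70 ± 0.09 at 12 h (7.08e-05) and 0.53 ± 0.09 at 24 h (0.000663). Slc7a11 works as a pair with the CD98 heavy chain described above.

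Slc6a9 (GLYT1), a glycine importer, averaged 135 ± 10.8 CPM at riociguat 6 h and 83.1 ± 4.38 CPM in DMSO, a log2 change of 0.70 ± 0.06 (adjusted p 8.98e-07). At 24 h, a value given after it was seen, its change was 0.05 ± 0.06 (adjusted p 0.705). Slc6a9 was also called as risen at 12 h. That call ended without DMSO replicate 2 (adjusted p 0.0876) or riociguat 12 h replicate 1 (0.0591). Cth, which makes cysteine from cystathionine, rose by 0.51 ± 0.13 at 6 h (0.017), a call that did not hold without DMSO replicate 2 (adjusted p 0.0839) or riociguat 6 h replicate 2 (0.0636). Cth was called as risen at 12 h too, but not without DMSO replicate 2 (adjusted p 0.11) or riociguat 12 h replicate 2 (0.116). Pck2, the mitochondrial PEP carboxykinase, rose by 0.58 ± 0.06 at 12 h (8.45e-06). Ddit4 (REDD1), an mTORC1 inhibitor, rose by 0.54 ± 0.07 at 12 h (6.94e-05) and 0.46 ± 0.07 at 24 h (0.000195). Nupr1, a stress-induced nuclear protein, rose by 0.45 ± 0.07 at 24 h (0.000452). A rise of Nupr1 was also called at 12 h, and lost without DMSO replicate 2 (adjusted p 0.05735) or riociguat 12 h replicate 2 (0.0702).

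Fewer of the further genes fell. Sec61a1, the channel of the ER translocon, fell at 6 h (-0.13 ± 0.04, adjusted p 0.0417) and 12 h (-0.14 ± 0.04, adjusted p 0.0301). Both calls were lost in many alternatives, at adjusted p of up to 0.176 without riociguat 6 h replicate 2 and 0.181 without riociguat 12 h replicate 2. Gdf15, a secreted stress cytokine and CHOP target, changed by -0.26 ± 0.06 at 24 h (0.00583). Creb3l1 and Creb3l2, membrane-bound relatives of ATF6 that raise secretory and collagen-handling genes, changed by -0.23 ± 0.06 (0.0171) and -0.22 ± 0.05 (0.00691) at 24 h. The Creb3l1 call ended when DMSO replicate 2 was left out (adjusted p 0.0677), riociguat 24 h replicate 2 (0.0663) or riociguat 24 h replicate 3 (0.0808), and that of Creb3l2 without riociguat 24 h replicate 1 (0.0523). At 6 h, a value given after it was seen, Creb3l1 changed by 0.35 ± 0.06 (0.00108). Of 7 eIF2alpha kinases and regulators, edgeR and DESeq2 called 0 at each time. In edgeR 0 at 6 h, 3 at 12 h and 1 at 24 h had an unadjusted p under 0.05. Of all 16036 genes, 3722, 2695 and 4216 did at these times.

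**Figure D5:**
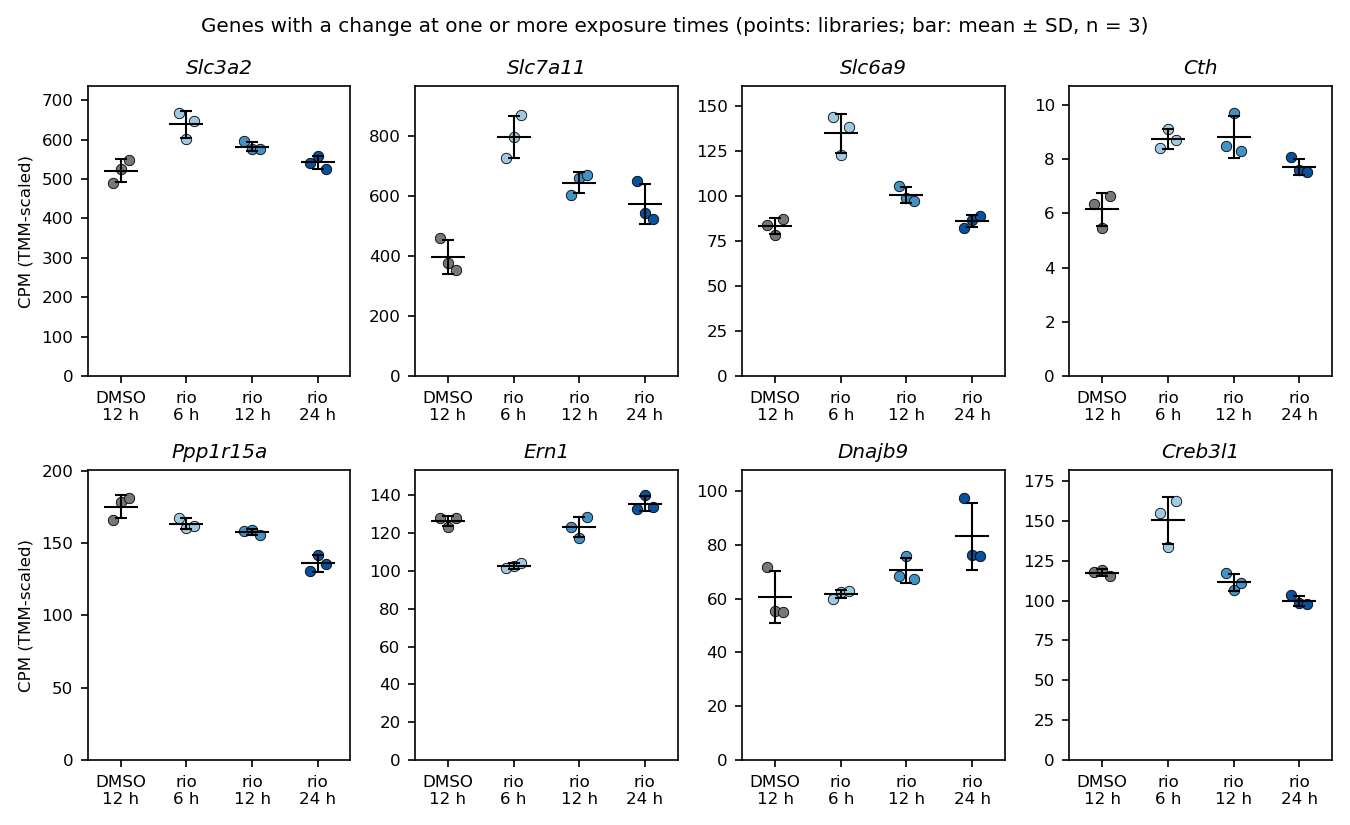
Level (y axis, TMM-scaled CPM, from 0) of Slc3a2, Slc7a11, Slc6a9, Cth, Ppp1r15a, Ern1, Dnajb9 and Creb3l1 in each library of DMSO 12 h and riociguat 6, 12 and 24 h, with mean ± SD (n = 3). Slc3a2, Slc7a11, Slc6a9 and Creb3l1 have their highest mean at 6 h, Ppp1r15a and Dnajb9 have their extremes at 24 h.

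Exposure times also differ in the time of addition. Of the 37 genes, 13 differed between 24 h and 6 h, 8 higher and 5 lower at 24 h. That is 35.1% of the list against 15.3% of all genes (7.16% higher, 8.13% lower). Between 12 h and 6 h, 3 genes were higher and 1 lower at 12 h, with 6.09% of all genes called (2.57% higher, 3.52% lower). Between 24 h and 12 h, 1 was higher and 2 lower at 24 h, with 3.08% of all genes called (1.37% higher, 1.71% lower). The highest mean was in DMSO for 6 genes, at riociguat 6 h for 3, at 12 h for 13 and at 24 h for 15. The lowest mean was in DMSO for 14, at 6 h for 8, at 12 h for 5 and at 24 h for 10. These orders were not counted over all genes, so they describe the list and have no background. Between 24 h and 6 h only 7 genes differed when these 2 groups alone were fitted. The 24 h against 6 h count was 8 without riociguat 6 h replicate 3, riociguat 24 h replicate 2 or riociguat 24 h replicate 3. The 12 h against 6 h count was 1 without riociguat 12 h replicate 2. The 24 h against 12 h count was 0 without riociguat 24 h replicate 1 and 1 without riociguat 12 h replicate 1, riociguat 12 h replicate 2 or riociguat 24 h replicate 3.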

How the data were processed

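The authors made the deposited table of estimated counts per gene, stored as whole numbers, from their reads. Per the submitters' processing notes, GRCm38 was the build, and DESeq2, FastQC, fastp and Salmon were used in unstated roles and versions, with no strand setting. Salmon shares reads between similar transcripts, so overlapping and near-identical genes are uncertain. Rounding changed no value. The test was edgeR's quasi-likelihood test (version 4.0.16, R 4.3.3; filterByExpr, TMM factors, two-sided), fitted once to the 12 libraries and 16036 genes with group as sole term. Benjamini-Hochberg adjustment ran over all genes of a comparison, with a threshold of 0.05. Standard errors and 95% intervals come from the moderated F statistic. The script was tested on simulated data. Alternatives were DESeq2's size factors, no filter, DESeq2 1.42.0, 2 groups only, a replicate block and each library left out. The 37 genes and all lists were chosen with earlier results of these data known, so no list was tested as a set. Per-library values are given for Atf4, Atf6, Xbp1, Ern1, Eif2ak3, Ddit3, Hspa5 and Asns, and, of the 78 further genes, the 3 risen and 3 fallen with the largest changes per comparison with DMSO are named. Gene positions are from GENCODE vM21, promoters from RefSeq.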

Additional observations from a re-analysis of the deposited data

Results flagged for a closer look

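The fitted level differed between riociguat groups of different exposure time for 20 pairs of gene and times, in the test of the difference itself (edgeR, adjusted over all genes). These differences share libraries with the comparisons with DMSO, and the time since the medium change at addition differed with exposure.

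At 12 h against 6 h, Phgdh was higher by 0.22 in log2 (adjusted p 0.0118), Pycr1 by 0.40 (0.0326) and Ern1 by 0.26 (0.00157), and the change of Atf6 was -0.19 (0.00739). Leaving out a library ended the calls of Phgdh (adjusted p 0.0588 without riociguat 6 h replicate 3, 0.0739 without riociguat 12 h replicate 2), Atf6 (0.0575 without riociguat 12 h replicate 2) and Pycr1 (5 of 12 libraries, up to 0.118 without riociguat 6 h replicate 1). The Pycr1 call was also lost with no filter on low counts (0.0603) and with only the 2 groups in the fit (0.0552).

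At 24 h against 12 h, the change was -0.38 for Ddit3 (0.00789), -0.21 for Ppp1r15a (0.0139) and 0.17 for Manf (0.0396). Each call was lost without at least 1 library: Ddit3 without riociguat 12 h replicate 3 (0.0501) or riociguat 24 h replicate 1 (0.0503), Ppp1r15a without any of 4 (up to 0.0849 without riociguat 24 h replicate 1) and Manf without any of 8 (up to 0.133 without riociguat 12 h replicate 3, and 0.0781 with no filter).

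At 24 h against 6 h, Ern1 was higher by 0.40 (7.78e-06), Dnajb9 by 0.43 (0.00745), Pycr1 by 0.34 (0.0404), Phgdh by 0.21 (0.00674), Mthfd2 by 0.19 (0.043), Xbp1 by 0.18 (0.00615), Manf by 0.15 (0.0238) and Shmt2 by 0.13 (0.0452). The change was -0.26 for Ppp1r15a (0.000665), -0.25 for Atf3 (0.0472), -0.24 for Slc3a2 (0.00245), -0.17 for Sesn2 (0.0313) and -0.15 for Atf6 (0.0155). The calls of Ern1, Dnajb9, Phgdh, Xbp1, Ppp1r15a and Slc3a2 were kept whichever library was left out. Those of the other 7 were lost without 3 to 10 of the 12 libraries, most often Atf3 (10, up to adjusted p 0.24), whose libraries overlapped between the times, then Pycr1 (7, up to 0.132), Sesn2 (6, up to 0.144), Shmt2 (5, up to 0.144), Mthfd2 (4, up to 0.198), Atf6 (3, up to 0.0769) and Manf (3, up to 0.0858). With only the 2 groups in the fit those 7 except Manf were lost as well (adjusted p 0.0538 to 0.107), and with no filter those of Pycr1, Sesn2, Shmt2, Atf6 and Manf (0.0544 to 0.112). The Atf3 call was also lost with DESeq2's size factors in edgeR (0.0541), and with DESeq2 those of Atf3 (0.0568) and Pycr1 (0.0653).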

How the results depend on the processing

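Of 38 calls on the 37 genes over 6 comparisons, 19 were kept under all 17 alternatives, and no called change turned its sign. The number of the 37 genes called became 5 at 6 h with DESeq2 (3 in the reported test), 5 at 12 h with no filter and with DESeq2 (2), 5 at 24 h against 12 h with DESeq2 (3) and 7 at 24 h against 6 h with 2 groups only (13, fewer samples in the fit). Over all genes, 838 were called at 24 h against 12 h with no filter (494). The cause was not tested. Leaving out a library gave 3 to 4 of the 37 genes at 6 h, 1 to 5 at 12 h, 9 to 14 at 24 h, 1 to 5 at 12 h against 6 h, 0 to 4 at 24 h against 12 h and 8 to 14 at 24 h against 6 h. Over all genes it gave 955 to 1852, 510 to 1262, 1395 to 2566, 596 to 1048, 318 to 551 and 1772 to 2555 in the same order. At 12 h without a filter 689 genes rose and 594 fell (349 and 558). Same-numbered libraries correlated at -0.136 to 0.0843 around their group means, and differently numbered libraries of different groups at -0.0739 to 0.0978. No pairing by replicate number was seen in these values, which cannot settle whether the samples were paired. With the replicate block, 3, 2, 12, 4, 2 and 11 of the 37 genes and 1348, 793, 1944, 842, 443 and 2208 of all genes were called in that order. The block ended 4 of the 38 calls, among them Atf6 at 24 h (adjusted p 0.0584). DMSO was at hand for 12 h only, and Chac1, Trib3 and Pycr1, with low counts, had the highest standard errors of the 37 genes in each comparison.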
